A study of Homo sapiens with 12 samples.

Results

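The genes described here are 51 human genes of G2 and mitosis, chosen by symbol from the 59248 rows of the deposited gene tables, and each symbol matched exactly 1 row. Their expression was compared between SJSA-1 cells stably expressing the shRNA-1 against RUNX2 (sh1, 6 libraries) and SJSA-1 cells stably expressing a scramble shRNA (shNC, 6 libraries). SJSA-1 is an established osteosarcoma cell line, and RUNX2 is the runt-domain transcription factor of osteoblast differentiation. Both groups carry the same lentiviral vector with EGFP and puromycin resistance, and both are selected pools and not clones, so a single shRNA is set against a single control. Whether the 6 libraries of a group come from independent cultures is not stated, so the p-values below reflect library-to-library variation that may be purely technical.

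Genes of G2 and mitosis are transcribed late in the cell cycle, so their mRNA is abundant in dividing cell populations and low in resting ones. In human cells the DREAM complex, which contains the MuvB core, represses many of these genes in resting and G1 cells, and MuvB with MYBL2 and FOXM1 activates them later, often through a promoter element called the cell cycle homology region beside CCAAT boxes bound by NF-Y. Their proteins form the kinase switches of mitotic entry, the spindle, the kinetochores that join chromosomes to it, the condensed chromosomes themselves and the machinery of division. In RNA from whole cultures, fewer cells in a phase and less of an mRNA per cell cannot be told apart.

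Gene counts summed to 11239638 to 16346022 per sh1 library and to 15328312 to 19992974 per shNC library. The library sh1 replicate 3 stood apart by its low total and by the share of its counts in rows without an Ensembl identifier, which was 1.23%, against 0.468% to 0.531% in the other sh1 libraries and 0.509% to 0.576% in shNC. RUNX2, the targeted gene, ranged from 21.6 to 27.4 CPM (counts scaled to library size, here with TMM factors) in sh1 and from 35.5 to 46.2 CPM in shNC. Its groups did not overlap, and its log2 fold change was -0.69 ± 0.076 (SE, n = 6 each; exact two-sided permutation test, p = 0.0022). The osteosarcoma genes SPARC, CDH11 and VIM and the amplified oncogene MDM2 were at 58.7 CPM or more in every library, whereas the osteoblast genes ALPL and COL1A2 were at 0.884 CPM or less in every library. The 11 markers of blood, endothelial, epithelial and muscle cells summed to 4.65 to 6.08 CPM in sh1 and 1.92 to 5.06 CPM in shNC, and the epithelial marker CDH1 was at 0 in all 12 libraries.

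Of the 51 genes, 50 had enough counts to be tested. GAS2L3, a linker of actin and microtubules in late mitosis, held at most 3 counts in any library and was not tested. On the FPKM scale, which divides by gene length and allows levels to be compared between genes, the tested genes ranged from 3.54 for CDC25C, the phosphatase that releases CDK1 from inhibition, to 198.1 for TUBB4B, a beta-tubulin of the spindle, as means over the 12 libraries. CKS2, a small docking subunit of cyclin-dependent kinases, came next with 133.3 FPKM, followed by the spindle assembly factor TPX2 with 104.98 FPKM and topoisomerase II alpha, TOP2A, with 98.8 FPKM. The median of the tested genes was 26.2 FPKM. The G2 and mitosis program was thus expressed in both groups.

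In sh1, 3 of the 50 genes rose and 5 fell at an adjusted p under 0.05 in edgeR's quasi-likelihood test, and 42 did not pass the test. The genes that rose were CENPF, ANP32E and LBR, and those that fell were TPX2, CDK1, GTSE1, CENPE and RANGAP1. Over all 16489 genes tested, 26.1% passed the same threshold, 12.8% upward and 13.3% downward, beside 16% of the 50 G2 and mitosis genes. The difference between these shares was not tested and depended on 1 library, since without shNC replicate 1 the count was 13 of 50 (26%), against 23.8% of all genes. An unadjusted p under 0.05 in edgeR was found for 15 of the 50 (30%), against 37.9% of all genes. The median log2 fold change was -0.055 for these genes and -0.00353 for all genes, and 34 of the 50 fold changes were negative. Log2 fold changes of the 50 lay between -0.60 and 0.28. None reached the 2-fold change that the paper required besides an adjusted p under 0.05. For 2 of the 50 genes, CDK1 and TPX2, the sh1 values were separate from the shNC values, as they were for 11.9% of all genes. When libraries were scaled by their totals in place of TMM, 6 genes rose and 5 fell, with NEK2, TOP2A and NCAPD2 added. The share of all genes past the threshold under this scaling is not given here, and their median log2 fold change was 0.013. Without shNC replicate 1, the median log2 fold change of the 50 genes turned to 0.011.

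**Figure D1:**
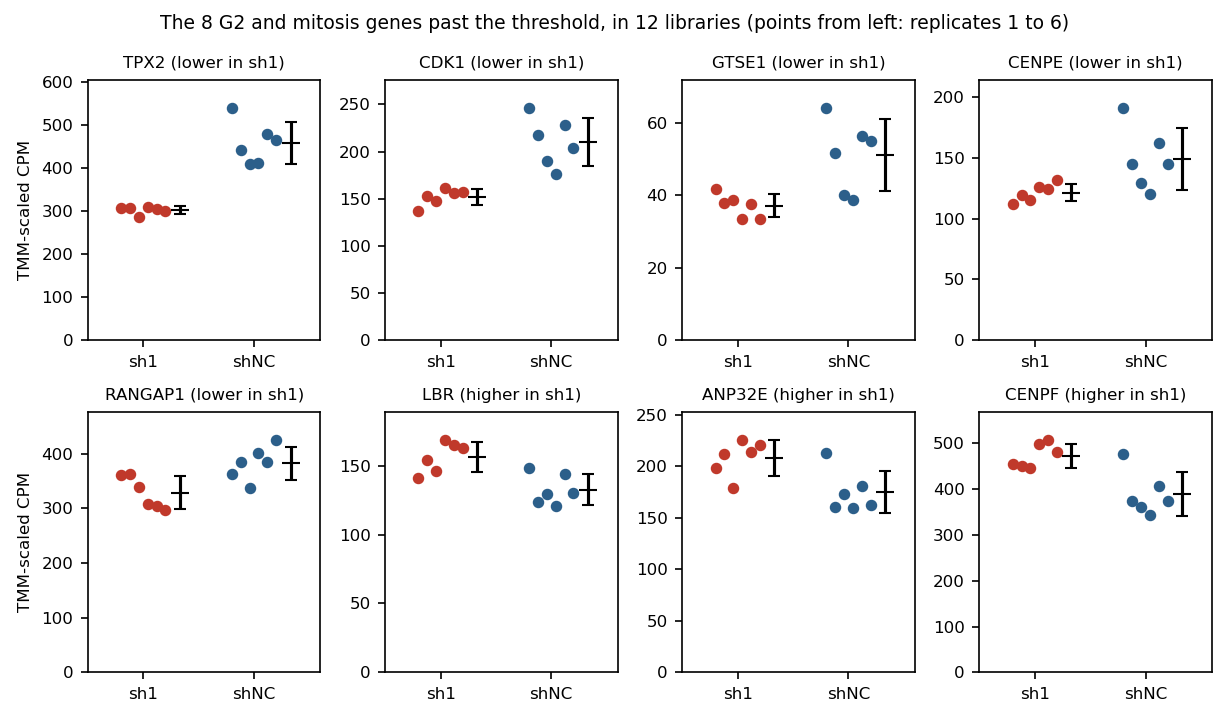
TMM-scaled CPM of the 8 G2 and mitosis genes past an adjusted p of 0.05 in edgeR, with 1 point per library (sh1 in red, shNC in blue, replicates 1 to 6 from left to right) and the mean ± SD of the 6 libraries in black. Every axis starts at 0. For TPX2 and CDK1 all 6 sh1 libraries lie below all 6 shNC libraries, while the groups of the other 6 genes overlap.

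Promoter sequence was used to describe what these genes share apart from their choice by function. RefSeq promoters (GRCh38.p14, 250 bases before to 50 bases after the start) matched 43 of the 51 genes. The core of the cell cycle homology region, TTTGAA or TTCGAA on either strand, was found in 31 of the 43 (72.1%), against 16.6% of all 27305 promoters of the same length and 11.5% of the promoters of tested genes. The CCAAT box was found on either strand in 30 of 43 (69.8%), against 35.7% of all promoters and 36.8% of those of tested genes. Both elements together stood in 26 of 43 (60.5%), against 6.58% of all promoters and 4.87% of those of tested genes. The letters TGTGGT, a core RUNX motif, stood on either strand in 4 of the 43 (9.30%), against 13.1% of all promoters and 9.38% of those of tested genes, a share close to that of the 43. The cores of the cell cycle homology region lay mostly close to the start, so that only 53.5% of the 43 held one within the 250 bases before it. A match of 6 letters is a description of the sequence and not a bound site.

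The promoters of 3 genes that changed and hold a core (CDK1, GTSE1 and CENPF) are shown with 2 that did not pass the test (CCNB2 and MKI67) and with LBR, which rose and holds no core. Capitals mark the core of the cell cycle homology region, the CCAAT box and the RUNX core on either strand. A CCAAT box on the other strand therefore reads ATTGG, the core in GTSE1 reads TTCAAA and the RUNX core in LBR reads ACCACA. Positions are counted from the start, which is base 1 and has no base 0 before it. The window of CDK1 (chr10:60778081-60778380, plus strand) holds its core at -161 beside a CCAAT box at -150. GTSE1 (chr22:46296620-46296919, plus strand) holds its core at -26 and a CCAAT box at -16. CENPF (chr1:214602945-214603244, plus strand) holds 4 CCAAT boxes and its core after the start, at position 41. CCNB2 (chr15:59104896-59105195, plus strand) holds 4 CCAAT boxes and a core at -29. MKI67 (chr10:128126374-128126673, minus strand) holds cores at -47 and -29, the second of which shares a letter with a CCAAT box. LBR (chr1:225428772-225429071, minus strand) holds neither element, and it was the only one of the 6 genes that changed and matched a promoter to hold TGTGGT, at -191.
CDK1: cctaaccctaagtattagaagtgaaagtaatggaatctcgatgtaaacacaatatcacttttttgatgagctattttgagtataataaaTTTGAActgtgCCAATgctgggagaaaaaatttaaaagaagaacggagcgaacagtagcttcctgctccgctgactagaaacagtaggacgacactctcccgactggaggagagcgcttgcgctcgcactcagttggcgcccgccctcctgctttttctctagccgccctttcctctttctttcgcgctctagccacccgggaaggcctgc
GTSE1: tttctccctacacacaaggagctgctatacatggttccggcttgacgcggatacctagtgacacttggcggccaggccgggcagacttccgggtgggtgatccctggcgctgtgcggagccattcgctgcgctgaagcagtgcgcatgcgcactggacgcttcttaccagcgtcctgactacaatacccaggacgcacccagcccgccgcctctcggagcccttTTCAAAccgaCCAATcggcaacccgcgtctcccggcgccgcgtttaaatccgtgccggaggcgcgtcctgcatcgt
CENPF: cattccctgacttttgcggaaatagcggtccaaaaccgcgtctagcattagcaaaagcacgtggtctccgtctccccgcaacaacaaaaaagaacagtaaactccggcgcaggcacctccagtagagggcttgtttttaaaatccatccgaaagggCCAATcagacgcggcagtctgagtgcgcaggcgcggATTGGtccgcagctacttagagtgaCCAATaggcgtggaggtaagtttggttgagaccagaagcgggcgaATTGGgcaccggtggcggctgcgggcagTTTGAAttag
CCNB2: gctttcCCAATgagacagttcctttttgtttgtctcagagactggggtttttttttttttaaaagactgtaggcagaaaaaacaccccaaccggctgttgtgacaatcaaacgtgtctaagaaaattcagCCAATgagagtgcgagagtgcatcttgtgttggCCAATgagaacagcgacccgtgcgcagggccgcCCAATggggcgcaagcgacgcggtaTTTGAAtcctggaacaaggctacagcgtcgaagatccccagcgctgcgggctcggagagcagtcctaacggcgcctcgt
MKI67: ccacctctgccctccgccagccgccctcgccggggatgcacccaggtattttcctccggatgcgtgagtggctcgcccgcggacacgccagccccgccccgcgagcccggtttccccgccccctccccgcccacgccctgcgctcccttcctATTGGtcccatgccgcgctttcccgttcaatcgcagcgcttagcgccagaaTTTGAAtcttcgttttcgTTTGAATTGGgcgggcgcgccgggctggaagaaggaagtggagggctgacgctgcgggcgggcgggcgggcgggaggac
LBR: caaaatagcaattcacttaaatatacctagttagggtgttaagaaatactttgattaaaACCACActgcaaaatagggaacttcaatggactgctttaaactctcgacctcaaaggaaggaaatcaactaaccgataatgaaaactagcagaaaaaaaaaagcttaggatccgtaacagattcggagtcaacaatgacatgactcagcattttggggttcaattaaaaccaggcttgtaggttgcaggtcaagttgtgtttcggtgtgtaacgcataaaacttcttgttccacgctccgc

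Among the 6 changed genes with a matched promoter, the core thus stood in CDK1 and GTSE1, which fell, and in CENPF, which rose. The core was not in the windows of CENPE, RANGAP1 and LBR. The window of RANGAP1 (chr22:41302320-41302619, minus strand) lies outside the coordinates of the gene (chr22:41244779-41286187). It may therefore not be the promoter of the transcripts measured here. Genes with the core had a median log2 fold change of -0.064 (31 tested genes), against -0.0052 for those without it (11 tested genes). These values describe the genes, and the difference was not tested.

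The kinases of mitosis and their partners numbered 12, of which 1 fell and none rose, with a median log2 fold change of -0.026. CDK1 (ENSG00000170312, chr10:60778331-60794852), the kinase that drives entry into mitosis, ranged from 137 to 161 CPM in sh1 (median 155), against 176 to 246 CPM in shNC (median 211). All sh1 libraries were below all shNC libraries. CDK1 mRNA was 72.3% of that in shNC, a log2 fold change of -0.47 ± 0.071 (SE, n = 6 each, edgeR adjusted p = 9.98e-05).

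None of the partners of CDK1 among these genes passed the test. Cyclin B2 (CCNB2), an activating partner, had a log2 fold change of -0.02 (95% interval -0.15 to 0.11), and CDC25C, its activating phosphatase, had 0.13 (95% interval -0.08 to 0.34). CKS1B and CKS2, docking subunits, had log2 fold changes of -0.09 and -0.16 with edgeR adjusted p of 0.415 and 0.356. Of the genes outside these 51, cyclin B1 (CCNB1) had a log2 fold change of -0.013 (edgeR adjusted p = 0.937). WEE1, the kinase that inhibits CDK1, rose in sh1, with 83.8 to 98.6 CPM, against 61.6 to 77.9 CPM in shNC (log2 fold change 0.34 ± 0.063, SE, edgeR adjusted p = 0.00062). The WEE1 groups did not overlap.

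NEK2, a kinase of centrosome separation, had the second smallest p of the kinases and did not pass the test. It ranged from 35.5 to 47.5 CPM in sh1 (median 42.6), against 34.4 to 41.4 CPM in shNC (median 37.3), with a log2 fold change of 0.18 ± 0.072 (SE, n = 6 each, edgeR adjusted p = 0.0692). The groups overlapped, with sh1 replicates 2, 3 and 6, at 40.7, 35.5 and 39.5 CPM, within the shNC range. Without sh1 replicate 3 NEK2 passed the test (log2 fold change 0.24, edgeR adjusted p = 0.0138). The chromosomal passenger complex, which corrects the attachment of chromosomes to the spindle, was represented by AURKB, BIRC5 and CDCA8, with log2 fold changes of -0.17, -0.012 and -0.031, none past the threshold (edgeR adjusted p = 0.112, 0.926 and 0.823). The checkpoint kinases BUB1 and TTK had log2 fold changes of -0.10 and 0.056, and the spindle pole kinase AURKA had 0.026, again with no call.

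Of the 7 genes of kinetochores and centromeres, 1 rose and 1 fell, and the median log2 fold change was -0.018. Both are large coiled-coil proteins of the outer kinetochore. CENPF (ENSG00000117724, chr1:214603185-214664574) ranged from 445 to 507 CPM in sh1 (median 468), against 344 to 477 CPM in shNC (median 374). Its highest shNC value was that of shNC replicate 1, and the other 5 shNC libraries, at 406 CPM or less, were below every sh1 library. CENPF mRNA was 121% of that in shNC (log2 fold change 0.28 ± 0.068, SE, n = 6 each, edgeR adjusted p = 0.0056).

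CENPE (ENSG00000138778, chr4:103105349-103198445), the kinesin that carries chromosomes to the spindle equator, moved the other way. It ranged from 112 to 132 CPM in sh1 (median 122), against 120 to 191 CPM in shNC (median 145). The groups overlapped through the low values of shNC replicates 3 and 4. CENPE mRNA was 81.6% of that in shNC (log2 fold change -0.29 ± 0.087, SE, n = 6 each, edgeR adjusted p = 0.0181), and the call was lost without shNC replicate 5 (log2 fold change -0.26, edgeR adjusted p = 0.0524). The other 5 genes lay between -0.18, for the centromeric histone CENPA, and 0.042, for NDC80, the microtubule-binding subunit of the outer kinetochore. NUF2, the partner of NDC80 in its complex, had -0.034, HJURP, the chaperone of CENPA, had -0.00403 and the depolymerizing kinesin KIF2C had -0.018.

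Of the 12 genes of spindle microtubules, 2 fell and none rose, with a median log2 fold change of -0.062. TPX2 (ENSG00000088325, chr20:31739271-31801805), which activates the kinase AURKA and nucleates microtubules near chromosomes, had the largest fold change and the smallest p of the 50 genes. It ranged from 287 to 308 CPM in sh1 (median 307), against 410 to 540 CPM in shNC (median 453). Every sh1 library was below every shNC library, and apart from sh1 replicate 3 the sh1 values lay within 299 to 308 CPM. TPX2 mRNA was 66.1% of that in shNC (log2 fold change -0.60 ± 0.061, SE, n = 6 each, edgeR adjusted p = 1.97e-06). Over all alternative fits and left-out libraries its log2 fold change lay between -0.62 and -0.54.

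GTSE1 (ENSG00000075218, chr22:46296870-46330810), a protein of microtubule plus ends, ranged from 33.4 to 41.8 CPM in sh1 (median 37.8), against 38.6 to 64.1 CPM in shNC (median 53.4). The lowest shNC values, those of replicates 3 and 4, lay within the sh1 range, and the other 4 shNC libraries were above it. GTSE1 mRNA was 72.8% of that in shNC (log2 fold change -0.46 ± 0.107, SE, n = 6 each, edgeR adjusted p = 0.0041).

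The other 10 spindle genes did not pass the test and lay between -0.11 and 0.12. The kinesin KIF11, which pushes spindle poles apart, had a log2 fold change of -0.050 (95% interval -0.20 to 0.095). The microtubule polymerase CKAP5 had -0.064, and its spindle partner TACC3 had 0.020. CKAP2 and its paralog CKAP2L had 0.12 and -0.11. The bundling protein NUSAP1, the stabilizer DLGAP5, the spindle protein PSRC1, HMMR and the tubulin TUBB4B had -0.060, -0.086, -0.027, 0.11 and -0.11.

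None of the 4 tested genes of cytokinesis passed the test, and their median log2 fold change was -0.065. KIF23, the kinesin of centralspindlin, ranged from 114 to 128 CPM in sh1 (median 122), against 91.7 to 141 CPM in shNC (median 111), a log2 fold change of 0.11 ± 0.077 (SE, n = 6 each, edgeR adjusted p = 0.300). KIF20B, a kinesin of the midzone, ranged from 127 to 148 CPM in sh1 (median 144), against 118 to 176 CPM in shNC (median 149.7), a log2 fold change of -0.074 ± 0.076 (SE, n = 6 each, edgeR adjusted p = 0.515). For both genes the sh1 libraries lay inside the range of the shNC libraries. The RhoA activator ECT2 and the contractile ring scaffold ANLN had log2 fold changes of -0.064 and -0.065.

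The 4 genes of ubiquitin ligases and their partners also gave no call, with a median log2 fold change of -0.091. UBE2C, the ubiquitin-conjugating enzyme of the anaphase-promoting complex, ranged from 63.2 to 84.3 CPM in sh1 (median 75.6), against 72.99 to 96.2 CPM in shNC (median 86.1), a log2 fold change of -0.16 ± 0.074 (SE, n = 6 each, edgeR adjusted p = 0.115). G2E3, a ubiquitin ligase of G2, ranged from 84.6 to 102 CPM in sh1 (median 90.8), against 86.5 to 108 CPM in shNC (median 98.98), a log2 fold change of -0.11 ± 0.066 (SE, n = 6 each, edgeR adjusted p = 0.252). Both overlapped between the groups. CDC20, the mitotic activator of the complex, and CDCA3, which promotes entry into mitosis, had -0.076 and 0.023. Of the 14 subunits of the anaphase-promoting complex itself, 3 (21.4%) fell and none rose, against 13.3% falling and 12.8% rising among all genes. These were ANAPC4, ANAPC13 and ANAPC16, with log2 fold changes of -0.40, -0.30 and -0.27 (edgeR adjusted p = 7.52e-05, 0.00076 and 0.0024).

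Of the 8 genes of chromosome structure and chromatin, 1 rose and none fell, and the median log2 fold change was 0.0013. ANP32E (ENSG00000143401, chr1:150218417-150236156), the chaperone that removes the histone variant H2A.Z from nucleosomes, ranged from 178 to 225 CPM in sh1 (median 213), against 159 to 213 CPM in shNC (median 168). The groups overlapped, since shNC replicate 1, at 213 CPM, was above 3 of the sh1 libraries and shNC replicate 5, at 181 CPM, was above sh1 replicate 3, while the other 4 shNC libraries were below every sh1 library. ANP32E mRNA was 119% of that in shNC (log2 fold change 0.25 ± 0.072, SE, n = 6 each, edgeR adjusted p = 0.0162). Outside the 51 genes, H2AZ1, which encodes H2A.Z, fell, with 166 to 204 CPM in sh1, against 226 to 324 CPM in shNC (log2 fold change -0.60 ± 0.084, SE, edgeR adjusted p = 4.63e-05), and its groups did not overlap.

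CDCA2, the chromatin-targeting subunit of protein phosphatase 1, ranged from 44.98 to 48.5 CPM in sh1 (median 47.2), against 42.7 to 65.3 CPM in shNC (median 57.2). The 6 sh1 libraries lay close together, between the low shNC replicates 3 and 4 and the other 4 shNC libraries. Its log2 fold change was -0.22 ± 0.090 (SE, n = 6 each, edgeR adjusted p = 0.0821), and it passed the test without shNC replicate 3 (edgeR adjusted p = 0.0271) or without shNC replicate 4 (edgeR adjusted p = 0.017). TOP2A, which untangles sister DNA, and NCAPD2, a subunit of condensin I, had log2 fold changes of 0.18 and 0.16 (edgeR adjusted p = 0.0968 and 0.0958). SMC4, a core subunit of both condensins, had -0.093. Ki-67 (MKI67), the coat protein of mitotic chromosomes and the usual marker of cycling cells, had -0.12 (95% interval -0.31 to 0.060, edgeR adjusted p = 0.320). HMGB2 and CBX5 had 0.00771 and -0.0052.

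In the nuclear envelope, which is taken apart and rebuilt in mitosis, 1 of 3 genes rose and 1 fell. LBR (ENSG00000143815, chr1:225401502-225428925), the lamin B receptor, ranged from 141 to 168 CPM in sh1 (median 159), against 120 to 148 CPM in shNC (median 129.6). Only the 2 lowest sh1 libraries, replicates 1 and 3, fell within the shNC range. LBR mRNA was 118% of that in shNC (log2 fold change 0.24 ± 0.060, SE, n = 6 each, edgeR adjusted p = 0.0076). RANGAP1 (ENSG00000100401, chr22:41244779-41286187), the activator of the GTPase activity of Ran, ranged from 297 to 364 CPM in sh1 (median 324), against 337 to 425 CPM in shNC (median 384). In sh1 it was 340 to 364 CPM in replicates 1 to 3 and 297 to 308 CPM in replicates 4 to 6. Its log2 fold change was -0.22 ± 0.065 (SE, n = 6 each, edgeR adjusted p = 0.0197), and the call was lost without sh1 replicate 4, 5 or 6 or shNC replicate 6, with edgeR adjusted p of 0.0576, 0.0655, 0.0628 and 0.0502. TMPO, which encodes the LAP2 proteins of the lamina, had -0.16 (edgeR adjusted p = 0.114).

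**Figure D2:**
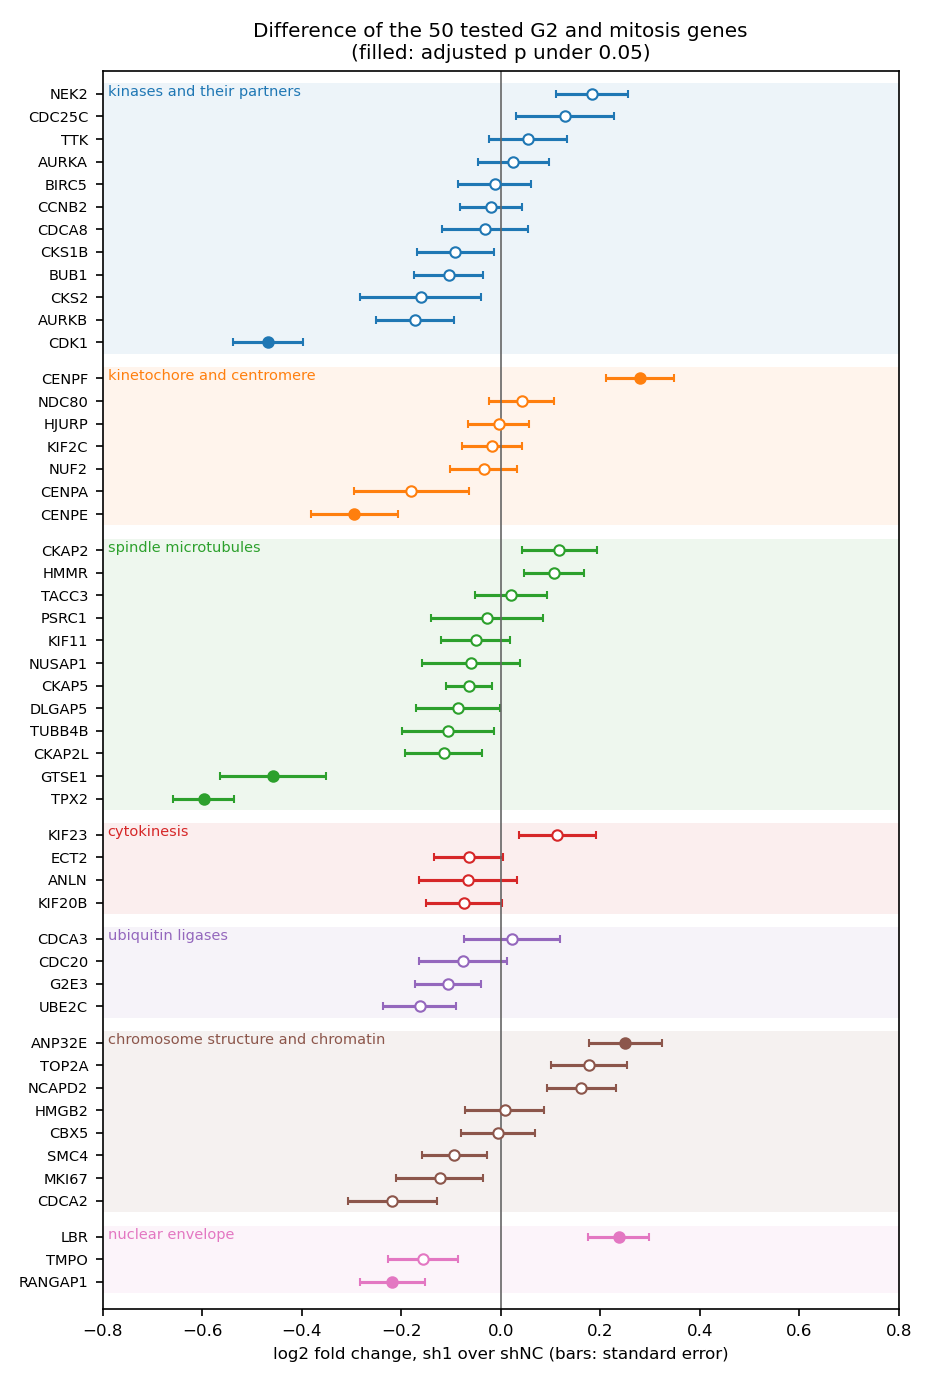
Log2 fold change of sh1 over shNC for the 50 tested genes, ordered within 7 role groups, with the standard error from edgeR as bars. Filled points passed an adjusted p of 0.05. Rises and falls stand side by side in the kinetochore and nuclear envelope groups, both changed spindle genes fell, and no gene of cytokinesis or of the ubiquitin ligases passed.

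The role groups therefore had medians between -0.16 for the nuclear envelope and 0.0013 for chromosome structure. Of the kinases and their partners 1 of 12 passed the threshold, as did 2 of 7 kinetochore genes and 2 of 12 spindle genes. Over all genes 26.1% passed. The difference between role groups was not tested.

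These genes differed between the groups in their spread between libraries. The SD of log2 CPM over the 6 libraries was larger in shNC than in sh1 for 48 of the 50 genes, while it was larger in shNC for 51.6% of all genes tested. The median SD of the 50 genes was 0.097 in sh1 and 0.178 in shNC, against 0.156 in sh1 and 0.162 in shNC over all genes. In sh1 the G2 and mitosis genes thus varied less between libraries than the median gene, and in shNC slightly more. The SD of log2 CPM also depends on the number of counts, and all genes were not matched to these genes for expression level. The exceptions were NEK2, with an SD of 0.156 in sh1 and 0.096 in shNC, and RANGAP1, with 0.130 in sh1 and 0.116 in shNC. Since these genes move together, the 50 are not independent observations, and the difference in spread was not tested.

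MKI67 showed the greatest ratio of the SDs, with 0.034 in sh1 and 0.254 in shNC. It ranged from 518 to 554 CPM in sh1 (median 540), against 467 to 742 CPM in shNC (median 592). The sh1 libraries all lay within the shNC range, above replicates 3 and 4 and below the other 4. CDCA2, BIRC5 (survivin) and TPX2 followed, with SDs of 0.041, 0.051 and 0.041 in sh1 and 0.255, 0.201 and 0.151 in shNC. BIRC5, with a log2 fold change of only -0.012, ranged from 111 to 120 CPM in sh1, against 98.9 to 142 CPM in shNC.

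**Figure D3:**
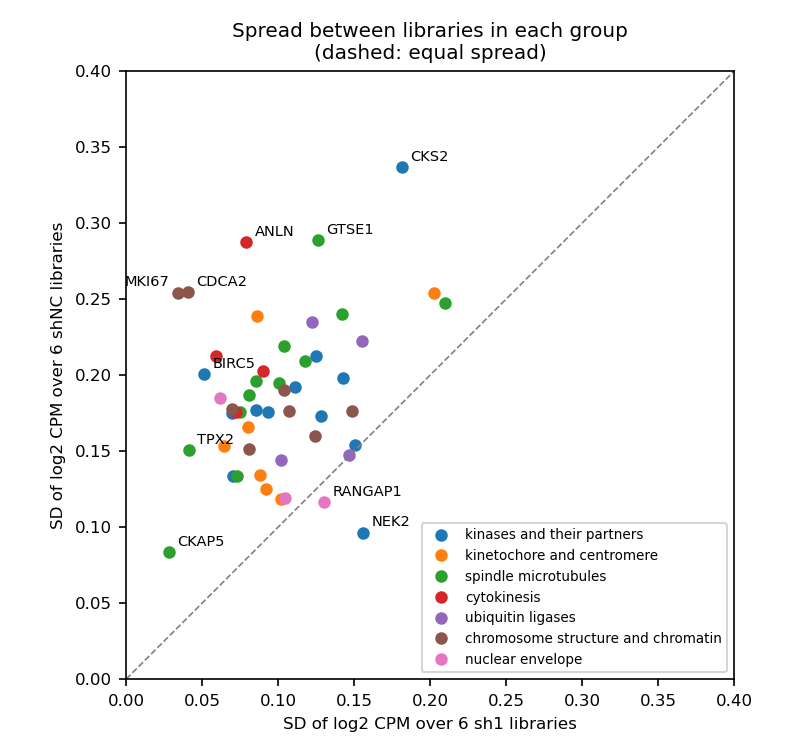
SD of log2 CPM over the 6 sh1 libraries (x axis) and over the 6 shNC libraries (y axis) for each of the 50 tested genes, coloured by role, with equal spread as a dashed line. All genes except NEK2 and RANGAP1 lie above the line, and MKI67 and CDCA2 lie farthest from it in ratio.

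The highest and lowest shNC libraries were mostly the same across these genes. Replicate 1 was the highest of the 6 shNC libraries in 43 of the 50 genes, against 24.0% of all genes. It was the highest of all 12 libraries in 36 of the 50, against 2649 of 16489 among all genes. Replicate 3 or replicate 4 was the lowest shNC library in 47 of the 50, against 34.1% of all genes. Averaged over the 50 genes, the deviation from the gene's mean over all libraries was 0.27 (log2) in shNC replicate 1 and 0.12 in shNC replicate 5, but -0.14 in shNC replicate 3 and -0.18 in shNC replicate 4. The averages of the 6 sh1 libraries lay between -0.10, in replicate 3, and 0.034, in replicate 4. The range of the averages was 0.13 in sh1 and 0.46 in shNC. The 6 sh1 libraries thus lay inside the range of the shNC libraries, and the difference of the group averages, -0.045, was smaller than the spread of the shNC libraries (SD 0.168).

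**Figure D4:**
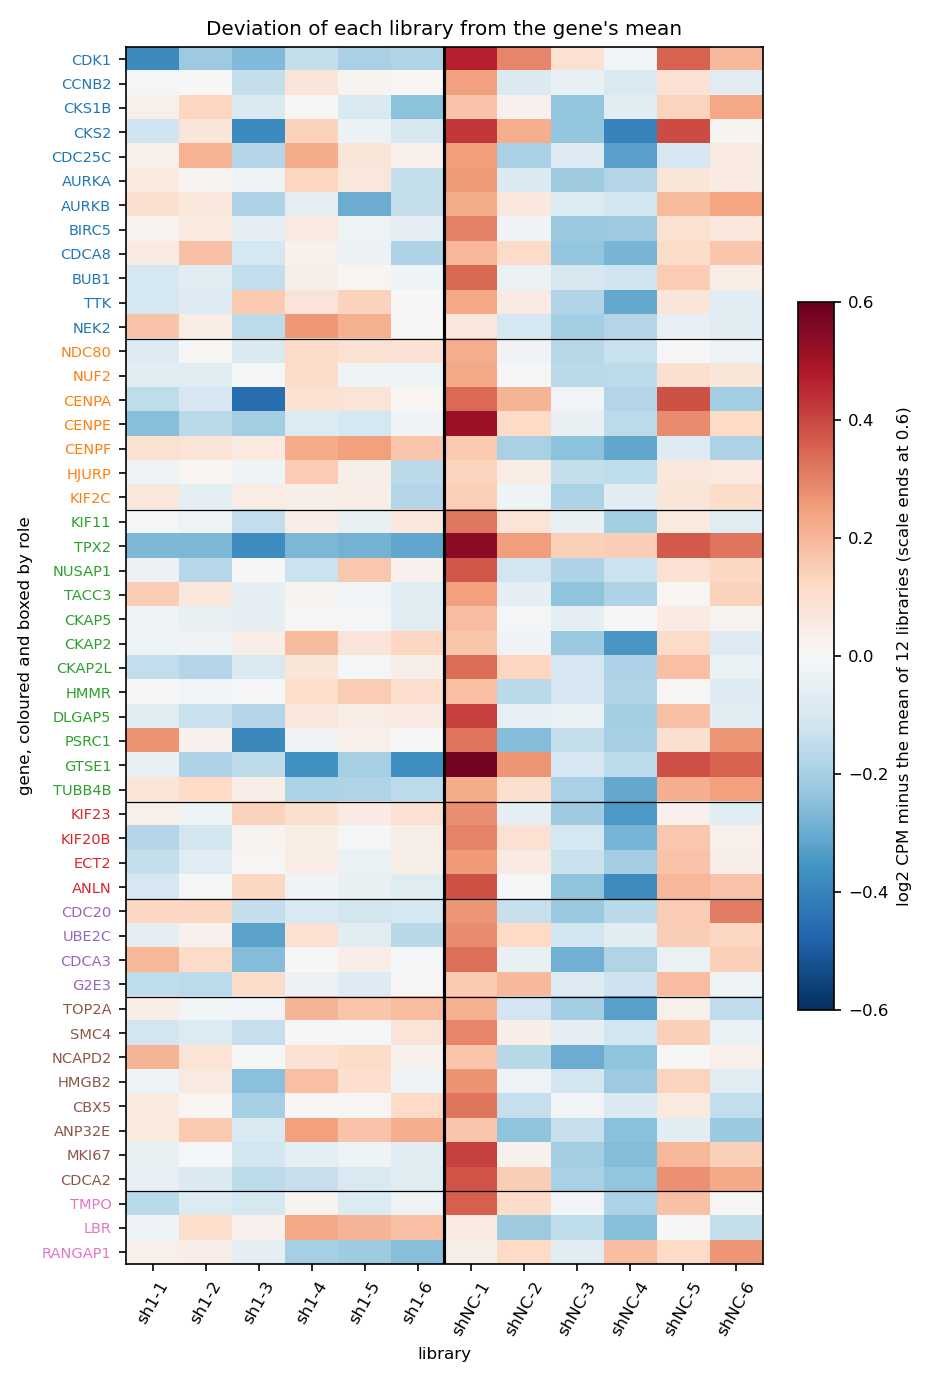
Deviation of log2 CPM in each library from the gene's mean over 12 libraries, for 50 genes in rows, boxed by role, with sh1 libraries to the left of the black line and shNC libraries to the right. The column of shNC replicate 1 is red in nearly all rows and those of shNC replicates 3 and 4 are mostly blue, whereas sh1 columns are paler, and the rows of CDK1 and TPX2 are blue in all sh1 libraries.

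For pairs of these genes, the deviations from their group means had a mean pairwise correlation of 0.64, against 0.00056 over all genes (n = 12 libraries). All genes measured in a library share its preparation and depth. Within shNC alone the mean pairwise correlation of these genes was 0.79 and within sh1 alone 0.17 (6 libraries each). Over all 12 libraries it was 0.93 in the cytokinesis genes, 0.75 in those of chromosome structure and 0.68 in kinetochore and spindle genes. In the kinases and their partners it was 0.67, in the ubiquitin ligases 0.42 and in the nuclear envelope genes -0.036. TPX2, which had the largest group difference, followed the mean of the other genes most closely (r = 0.98), and RANGAP1 least (r = -0.10). These correlations are of deviations from group means, so the group difference does not enter them.

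The pattern was seen again in each alternative taken, of which only shNC replicate 1 and sh1 replicate 3 were libraries left out. Without shNC replicate 1, the SD was larger in shNC for 41 of the 50 genes, against 45.5% of all genes. Without sh1 replicate 3 it was larger for 47, against 58.7%. With library totals in place of TMM it was larger for 45, against 52.0%, and on the log2(FPKM + 1) scale for 45, against 51.2%. The TMM factor of shNC replicate 1 was 0.963 and that of shNC replicate 5 was 0.980, the lowest of the 12 libraries, the others lying between 1.00 and 1.01. The total of shNC replicate 1, 18066399 counts, lay within the shNC range.

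The same averages were taken over other lists. A list of 91 other genes of G2 and mitosis averaged between -0.068 and -0.0054 in the sh1 libraries and between -0.12 and 0.23 in the shNC libraries, with replicate 1 again highest and replicate 4 lowest. A list of 41 S phase genes, chosen after the data had been seen and with 40 genes tested, averaged between -0.12 and -0.049 in sh1 and between -0.12 and 0.33 in shNC, with the same libraries at the ends. The SD was larger in shNC for 74 of the 91 and for 34 of the 40. The 20 regulators of the transcription of G2 and mitosis genes averaged between -0.042 and 0.032 in sh1 and between -0.025 and 0.042 in shNC, again with replicate 1 highest and replicate 4 lowest but over a smaller range, and their mean pairwise correlation was -0.0060. The 14 subunits of the anaphase-promoting complex averaged between -0.087 and -0.0070 in sh1 and between 0.0084 and 0.12 in shNC, with replicate 1 highest and replicate 3 lowest.

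**Figure D5:**
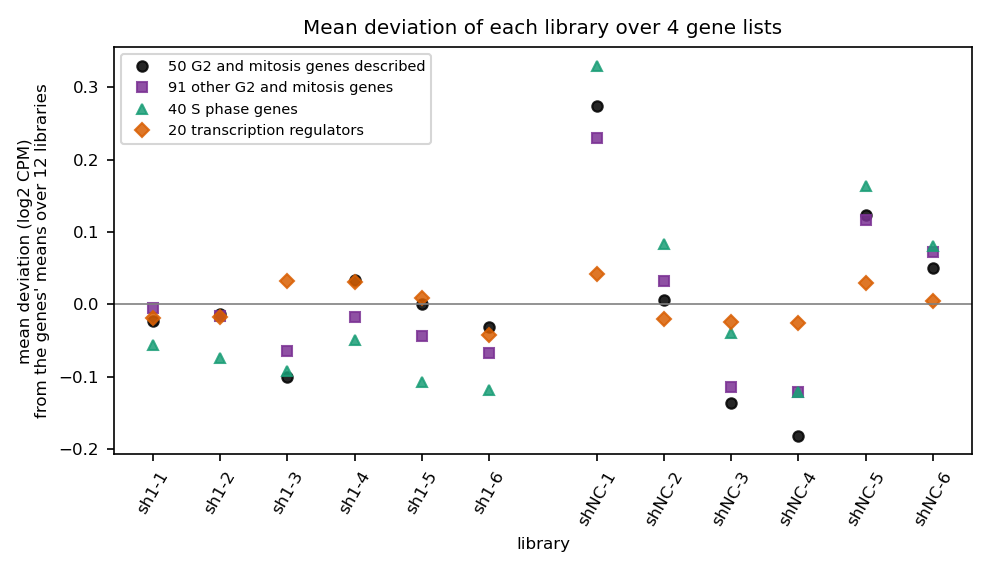
Mean deviation of log2 CPM from the genes' means over 12 libraries, by library, for the 50 G2 and mitosis genes, 91 other genes of G2 and mitosis, 40 S phase genes and 20 transcription regulators. In shNC the 3 cell cycle lists run from 0.23 or more in replicate 1 to -0.12 or less in replicate 4, while the sh1 libraries stay between -0.12 and 0.034 and the regulators stay between -0.042 and 0.042 in all libraries.

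A fit was added after the data had been seen, in which the average deviation of the 91 other genes in each library was a covariate. These deviations were taken from each gene's mean within its group, so the covariate had the same mean in both groups. It adjusts for variation between libraries of a group and does not set the groups at a common level of the program. The average group difference of these 91 genes, -0.072 (log2), was thus left in. Shared variation between libraries leaves the error in this fit but stays in the group averages, so its p-values can be too small. Of the 50 genes, 7 then rose and 10 fell by edgeR at an adjusted p under 0.05, together 34%, against 31.3% of all genes, 15.6% rising and 15.7% falling. All 8 genes named above stayed past the threshold in the same direction. AURKB, CDCA2, MKI67, TMPO and UBE2C were added to those that fell, and KIF23, NCAPD2, NEK2 and TOP2A to those that rose. In this fit MKI67 had a log2 fold change of -0.10 (edgeR adjusted p = 0.0346) and TOP2A 0.19 (edgeR adjusted p = 0.0118). Without shNC replicate 1 and with no covariate, 8 genes rose and 5 fell, against 11.7% rising and 12.1% falling among all genes, and the genes added were HMMR, KIF23, NCAPD2, NEK2 and TOP2A.

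Of the 91 other genes of G2 and mitosis, 4 (4.40%) rose and 16 (17.6%) fell in sh1 by edgeR, against 12.8% rising and 13.3% falling among all genes, with a median log2 fold change of -0.067. The smallest p-values belonged to H2AZ1, ZWINT, WEE1, SPC25 and NCAPH2. ZWINT and SPC25, both of the outer kinetochore, had log2 fold changes of -0.42 and -0.55 (edgeR adjusted p = 0.000607 and 0.000875), and NCAPH2, a subunit of condensin II, had -0.38 (edgeR adjusted p = 0.0012). For each of these 5 genes the groups did not overlap. Cyclin A2 (CCNA2) and the mitotic kinase PLK1 did not pass the test, with log2 fold changes of -0.048 and 0.17 (edgeR adjusted p = 0.636 and 0.0683). The count that fell was 9 without shNC replicate 5, 10 without sh1 replicate 5 or shNC replicate 2 and 24 without shNC replicate 4, and the count that rose was 7 without sh1 replicate 6. Shares of all genes without these libraries are not given here, so these counts cannot be told apart from a change in calls over all genes. Of the 40 tested S phase genes, 17 (42.5%) fell and none rose by edgeR at an adjusted p under 0.05, against 13.3% falling and 12.8% rising among all genes, with a median log2 fold change of -0.18 in a list chosen after the data had been seen. Those that fell include MCM5 and CDC45 of the replicative helicase (log2 fold changes -0.49 and -0.38). In 36 of the 40 S phase genes shNC replicate 1 was the highest shNC library, against 24.0% of all genes. The S phase counts without this library are not given here.

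Among the 20 regulators of transcription, 4 (20%) rose and 3 (15%) fell by edgeR, against 12.8% rising and 13.3% falling among all genes. Of those that rose, CDKN1A, an inhibitor of cyclin-dependent kinases, had a log2 fold change of 0.24, the E2F partner TFDP1 had 0.20 and the DREAM pocket protein RBL2 had 0.15 (edgeR adjusted p = 0.0259, 0.0290 and 0.0447). The repressor E2F8 had -0.38, and the MuvB subunits LIN54 and RBBP4 each had -0.22 (edgeR adjusted p = 0.0091, 0.0145 and 0.0091). FOXM1 and MYBL2, the activators of late cell cycle genes, had -0.14 and -0.037 and did not pass the test (edgeR adjusted p = 0.106 and 0.705).

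Reads of 10 of the 51 genes could be shared with another tested gene whose exons overlap, on the opposite strand in 9, because the library kit does not mark strand. None of the 8 changed genes is among them. NCAPD2 overlaps MRPL51, a mitochondrial ribosomal gene on the opposite strand, which fell with a log2 fold change of -0.71 (edgeR adjusted p = 6.4e-05), and TMPO overlaps TMPO-AS1, with -0.35 (edgeR adjusted p = 0.0945).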

How the data were processed

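Polyadenylated RNA was sequenced as read pairs. The authors aligned reads with HISAT2 to GRCh38 and deposited gene counts from featureCounts, those counts divided by 1 size factor per library (a normalized signal) and FPKM values computed from the counts. Tool versions for alignment and counting: not given in the sources used here. Rows without an Ensembl identifier (572 of 59248) stayed in library totals. Every deposited column matched a sample.

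The counts went through edgeR 4.0.16 under R 4.3.3 with TMM factors, filterByExpr and the quasi-likelihood functions glmQLFit and glmQLFTest, sh1 over shNC, with Benjamini-Hochberg adjustment over 16489 genes and a threshold of 0.05. The scripts were tested on simulated data. Standard errors are the absolute log2 fold change over the root of its F value. The common biological coefficient of variation was 0.106. CPM are TMM-scaled, and SDs are of log2 CPM. The lowest total, 11239638 counts, sets the lowest precision. Symbols and coordinates are of GENCODE 44 (GRCh38), promoters of RefSeq. The 51 genes, the other lists and the motifs were chosen with earlier results of these data known. Values were given for each gene past the threshold, for the 2 smallest p-values in a role group with 1 or no such gene, for the highest and lowest FPKM, for called regulators and for the 5 smallest p-values of the other genes of G2 and mitosis. A called regulator that this rule names is not reported here. MKI67, BIRC5, CCNA2, CCNB1, PLK1 and the S phase genes were chosen after their values were seen.

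Alternatives were RLE, upper quartile and library total scaling, the authors' size factors, no filter or 10 counts in every library, robust dispersion, DESeq2 1.42.0, limma 3.58.1 on log2 FPKM with a pseudocount of 1 or 0.1, a block for replicate numbers, a shorter promoter window and leaving out each library. The covariate fit, the S phase list and the alternatives of the spread were chosen once the data had been seen.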

Additional observations from a re-analysis of the deposited data

Results flagged for a closer look

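Of 108 checks for a library far from the other 5 of its group (Dixon's criterion, which chance passes in about 1 of 20 groups), 3 were met. The total of sh1 replicate 3 was 11239638 counts, against 14689309 to 16346022 in the other sh1 libraries. Its share of counts in rows without an Ensembl identifier was 1.23%, against 0.468% to 0.531%. Among 100 checks of the G2 and mitosis genes only NUF2 met the criterion, with 55.2 CPM in sh1 replicate 4, against 48.9 to 51.1 CPM in the other sh1 libraries, where about 5 such cases would be met by chance.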

How the results depend on the processing

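Under RLE, upper quartile and the authors' size factors, the other filters, robust dispersion, DESeq2 and both limma fits, the same 8 genes passed the threshold in the same direction. With library totals 6 genes rose, a count given without the share of all genes under that scaling. With the covariate, added after seeing the data, 7 rose and 10 fell. With 1 library left out, 3 to 8 genes rose, 4 to 7 fell and the median log2 fold change was -0.076 to 0.011, with the highest count that rose and the median of 0.011 without shNC replicate 1. Of the 91 other genes of G2 and mitosis, 3 to 7 rose and 9 to 24 fell with 1 library left out. Among the fits with 1 library left out, the share of all genes past the threshold is given only for shNC replicate 1. The covariate is made from these 91 genes, so they are not read under it. Over the 50 genes and all alternatives, 1173 fold changes kept their side of the threshold, 6 lost it (CENPE and RANGAP1), 21 gained it and none that passed changed sign. In the 250 bases before the start, 53.5% of the promoters held TTTGAA or TTCGAA, against 14.6% of all promoters. TTTGAA stood in 51.2% and TTCGAA in 2.33%. This window leaves out the 50 bases after the start, where some genes, such as CENPF, hold their core.

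With the replicate number as a block, 3 genes rose and 4 fell, RANGAP1 being lost (edgeR adjusted p = 0.055), and the median log2 fold change was -0.044. Same-numbered libraries had correlations of -0.16 to 0.033 and no sh1 library correlated best with its own number. These values gave no sign of pairing by number and cannot exclude it. Whether same-numbered libraries were handled together is not stated.

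Depth limits the statements on GAS2L3 and on genes of low count. The groups rest on 1 shRNA and 1 control, the independence of the libraries is unknown, and cell cycle phase was not measured.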
